A study of Rattus norvegicus with 23 samples.

Results

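The miR-200 family was examined in small RNA of sperm from the cauda epididymis, the last segment of the duct in which sperm mature and are stored. Every row of the miRNA table named miR-200a, miR-200b, miR-200c, miR-141 or miR-429 was taken, on either arm of the hairpin, which gave 8 of 425 rows. The family is encoded in a pair of clusters: 5 rows came from the cluster of miR-200b, miR-200a and miR-429 and 3 from the cluster of miR-200c and miR-141. The donors were male Long-Evans rats, an outbred strain, held in chambers with filtered air (7 rats), ozone at 0.4 ppm (8 rats; chamber mean 0.401 ppm) or ozone at 0.8 ppm (8 rats; chamber mean 0.798 ppm). Every rat had 5 exposures of 4 h over 2 weeks, 3 in the first and 2 in the second. The design text gives 8 rats per group, and 7 air libraries are labelled here. The labels give no age of the rats and no interval between the last exposure and sperm collection. The study asked whether episodic ozone alters the noncoding RNA of sperm.

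miR-200 miRNAs are abundant in epithelia, including the lining of the epididymis, and sparse in mesenchymal cells. They repress the transcription factors Zeb1 and Zeb2, which themselves repress E-cadherin and the miR-200 genes, so that the family and the Zeb factors hold each other in check. Sperm pass along the epididymal epithelium and receive small RNA from vesicles it sheds. Levels in a sperm pellet can therefore hold RNA of the germ cell, RNA acquired from the duct and RNA of other cells in the pellet. In such a bulk sample a change in the number of cells of a type cannot be told apart from a change in the RNA per cell.

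The mature sequences show how the members relate, since target choice rests largely on the seed, bases 2 to 8 from the 5′ end, printed here in capitals. RefSeq on the build GRCr8, which is not the build rn6 of the reads, gave a mature sequence for 5 of the 8 members and for the 5p arm of miR-200c, which is not a row of the table. From the miR-200c/miR-141 cluster, on the minus strand of chromosome 4, the 3p arms show the pair of seeds that divide the family:
rno-miR-141-3p: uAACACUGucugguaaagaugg
rno-miR-200c-3p: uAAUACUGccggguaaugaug

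These lie at chr4:159209540-159209561 and chr4:159209969-159209989. Over the 21 positions compared, counted from 1 at the 5′ end of miR-141-3p, 17 were identical. The differences were C4U, which lies in the seed, and U9C, U11G and A17U, which lie outside it. As background, miR-200a-3p carries the seed of miR-141-3p, and miR-200b-3p and miR-429 carry the seed of miR-200c-3p, so each genomic cluster holds both seeds. The 5p arms are shown because one of them was a sizeable share of its hairpin's reads in these libraries:
rno-miR-200a-5p: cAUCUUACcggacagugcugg
rno-miR-200b-5p: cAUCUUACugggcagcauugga
rno-miR-141-5p: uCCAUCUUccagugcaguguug

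miR-200a-5p and miR-200b-5p lie on the minus strand at chr5:171930770-171930790 and chr5:171931548-171931569. They had the same seed and were identical at 16 of 21 positions, with C9U, A12G, U16C, G17A and C18U between them, counted from 1 at the 5′ end of miR-200a-5p. miR-141-5p, at chr4:159209584-159209605, had a seed of its own. The hairpins Mir141 and Mir200c together spanned 509 bases of chromosome 4, and Mir429, Mir200a and Mir200b 1908 bases of chromosome 5. No source used here says how reads that match several such sequences were assigned, so the split of reads between members of similar sequence is uncertain.

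The libraries held 213839 to 1286612 miRNA reads, with a median of 628270. Mean reads were 727314 ± 273964 in air, 582918 ± 334632 at 0.4 ppm and 747882 ± 334315 at 0.8 ppm (SD; 7, 8 and 8 rats). Depth was thus not balanced over the groups, and the 0.4 ppm group had the lowest mean. Values are the deposited normalised read signal, a read count divided by a library factor, and 1 read was worth 0.470 to 2.53 units. miRNAs known from male germ cells, led by miR-34c-5p and miR-34b-3p, held 42.6% ± 5.46 of the miRNA signal in air, 35.6% ± 6.50 at 0.4 ppm and 41.7% ± 9.25 at 0.8 ppm (SD; 7, 8 and 8 rats). They held 23.6% or more in every library, so miRNAs known from the labelled cell type were present. Their presence does not by itself identify the cells. Messenger RNA could be checked in few cases: of 24 targets and regulators of miR-200 none was found in the table of Ensembl transcripts, and of 12 genes of the epididymal epithelium 1 was, Lcn5, a lipocalin of that epithelium. Lcn5 signal averaged 86.4 ± 25.2 in air, 83.5 ± 31.2 at 0.4 ppm and 83.2 ± 37.1 at 0.8 ppm (SD; 7, 8 and 8 rats). In 3 ozone libraries at least 1 abundant family member stood far above the rest of its group: 0.4 ppm replicates 2 and 6 and 0.8 ppm replicate 5. The 0.8 ppm replicate 5 was the shallowest of the 23 libraries (213839 reads) and 0.4 ppm replicate 6 the next shallowest (251123 reads). Fold changes against air, the family's sum and share, the ratio of the clusters and the correlations are given below with and without these 3 libraries. This choice was made after their values were seen. All 3 are ozone libraries, and no high air library was left out. For the members high in them, lower ozone values without them follow from the choice itself. Of the fold changes between the ozone groups only some are given without them.

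The family was led by 2 miRNAs, miR-141-3p from the chromosome 4 cluster and miR-200a-3p from the chromosome 5 cluster. They share a seed. Together they made up 84.3% ± 4.12 of the family in air, 85.4% ± 3.28 at 0.4 ppm and 81.8% ± 3.64 at 0.8 ppm (SD; 7, 8 and 8 rats), and the 3p arms with the other seed, miR-200b-3p, miR-200c-3p and miR-429, 15.0% ± 3.92, 13.9% ± 3.16 and 17.5% ± 3.63. By mean over all libraries miR-141-3p ranked 27 and miR-200a-3p 30 among the 425 miRNAs. miR-200c-3p and miR-429 ranked 70 and 71, miR-200b-3p 96, miR-200b-5p 155, miR-200a-5p 194 and miR-141-5p 352. Between neighbours in this order, miR-141-3p exceeded miR-200a-3p in 15 of 23 libraries and miR-429 exceeded miR-200c-3p in 13, so neither pair had a fixed order. Below them the order was fixed: miR-200c-3p and miR-429 each exceeded miR-200b-3p in all 23 libraries, and miR-200b-5p exceeded miR-200a-5p in all 23.

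miR-141-3p, the most abundant member, ran from 1512 over a median of 2984 to 5541 in air libraries. At 0.4 ppm it ran from 3104 over 4824 to 9112, and at 0.8 ppm from 2299 over 3473 to 4994. The 0.4 ppm libraries were all above the air median, and 1 of 8 was above the highest air library, so the groups overlapped widely. The log2 fold change at 0.4 ppm against air was 0.67 ± 0.25 (SE; 95% interval 0.16 to 1.17; limma unadjusted p = 0.0108, adjusted p = 0.784). At 0.8 ppm against air it was 0.18 ± 0.25 (−0.32 to 0.68; limma adjusted p = 0.993). At 0.8 against 0.4 ppm it was −0.49 ± 0.24 (−0.97 to −0.00; limma unadjusted p = 0.0498, adjusted p = 0.729), so miR-141-3p had its highest mean at the middle concentration without passing the test over all miRNAs.

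miR-200a-3p, its partner by seed, ran from 1581 over 3098 to 4146 in air, from 2532 over 3314 to 5598 at 0.4 ppm and from 1247 over 2346 to 7934 at 0.8 ppm. At 0.8 ppm 7 libraries lay at or below 3299 and replicate 5 stood alone at 7934. Its log2 fold change was 0.37 ± 0.28 at 0.4 ppm against air (limma adjusted p = 0.847) and −0.16 ± 0.28 at 0.8 ppm against air (limma adjusted p = 0.993). Between the ozone groups, 0.8 against 0.4 ppm, it was −0.53 ± 0.27 (−1.08 to 0.03; limma adjusted p = 0.729). Without 0.8 ppm replicate 5 the 0.8 ppm mean was 2202 ± 686 (SD, n = 7), against 2933 ± 1000 in air (SD, n = 7). Its fold change is sensitive to that library: without it the log2 value was −0.40 at 0.8 ppm against air and −0.76 at 0.8 against 0.4 ppm (limma unadjusted p = 0.00207, adjusted p = 0.295). With each rat left out in turn it ran from 0.23 to 0.46 at 0.4 ppm against air and from −0.40 to −0.02 at 0.8 ppm against air. Without the 3 high libraries these values were 0.19 and −0.40.

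miR-429, at the end of the chromosome 5 cluster, ran from 237 over 347 to 571 in air, from 278 over 569 to 1024 at 0.4 ppm and from 382 over 477 to 673 at 0.8 ppm. At 0.4 ppm 4 of 8 libraries exceeded every air library. At 0.8 ppm 2 of 8 did so, and all 8 exceeded the air median. Its mean was 627 ± 270 at 0.4 ppm and 509 ± 110 at 0.8 ppm (SD, n = 8 each), against 366 ± 120 in air (SD, n = 7). The log2 fold change at 0.4 ppm against air was 0.72 ± 0.25 (limma unadjusted p = 0.00643, adjusted p = 0.784). At 0.8 ppm against air it was 0.51 ± 0.25 (0.01 to 1.01; limma unadjusted p = 0.0466, adjusted p = 0.993). With weights on the libraries the 0.4 ppm value was 0.88 and passed (limma adjusted p = 0.0468); over the 12 alternatives the adjusted p ran from 0.0468 to 0.985. In mice, miR-200b and miR-429 act in the pituitary and are needed for ovulation; a role in sperm was not examined here.

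miR-200b-3p had signal from 98.6 over 151 to 220 in air, from 119 over 219 to 451 at 0.4 ppm and from 149 over 215 to 371 at 0.8 ppm. Its mean was 243 ± 112 at 0.4 ppm and 232 ± 77.0 at 0.8 ppm (SD, n = 8 each), against 154 ± 42.9 in air (SD, n = 7). Its fold changes against air were almost equal at both concentrations, with log2 values of 0.57 ± 0.26 at 0.4 ppm against air (limma unadjusted p = 0.0370, adjusted p = 0.784) and 0.57 ± 0.26 at 0.8 ppm against air (limma unadjusted p = 0.0358, adjusted p = 0.993). These comparisons share the air rats. At 0.8 against 0.4 ppm the value was 0.00 ± 0.25 (−0.51 to 0.52; limma adjusted p = 0.997). Its 5p arm, miR-200b-5p, ran from 23.8 over 32.2 to 35.8 in air, from 29.0 over 43.8 to 77.0 at 0.4 ppm and from 25.4 over 34.1 to 59.9 at 0.8 ppm. At 0.4 ppm 6 of 8 libraries exceeded every air library, the most of the 8 members, and the log2 fold change was 0.49 ± 0.24 (limma unadjusted p = 0.0431, adjusted p = 0.784). At 0.8 ppm against air it was 0.15 ± 0.24 (limma adjusted p = 0.993).

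miR-200c-3p, the steadiest member, ran from 393 over 488 to 581 in air, from 412 over 489 to 824 at 0.4 ppm and from 409 over 441 to 1028 at 0.8 ppm. The group medians lay close together and 1 library in each ozone group stood high. Its log2 fold changes were 0.05 ± 0.20 at 0.4 ppm against air (−0.35 to 0.46; limma adjusted p = 0.951) and 0.04 ± 0.20 at 0.8 ppm against air (−0.37 to 0.45; limma adjusted p = 0.993). Its mean was 518 ± 133 at 0.4 ppm and 526.1 ± 206 at 0.8 ppm (SD, n = 8 each), against 490.8 ± 60.6 in air (SD, n = 7). Without the 3 high libraries the fold changes had the other sign, −0.08 and −0.11. miR-200a-5p ran from 7.49 over 13.8 to 18.8 in air, from 10.1 over 15.2 to 21.9 at 0.4 ppm and from 5.46 over 12.8 to 57.5 at 0.8 ppm, with log2 fold changes against air of 0.23 ± 0.33 at 0.4 ppm and 0.06 ± 0.33 at 0.8 ppm (limma adjusted p = 0.920 and 0.993). Without 0.8 ppm replicate 5 the 0.8 ppm value was −0.22.

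miR-141-5p was barely detected. It had 3 reads in all air libraries together, 10 at 0.4 ppm and 19 at 0.8 ppm, at most 5.83 units in any library, and was at 0 in 4 of 7, 3 of 8 and 2 of 8 libraries of air, 0.4 ppm and 0.8 ppm. Its log2 fold changes of 0.64 ± 0.42 at 0.4 ppm and 0.85 ± 0.42 at 0.8 ppm against air (limma adjusted p = 0.812 and 0.993) depend on the 1 added before the logarithm, and no difference was detectable at this depth.

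**Figure D1:**
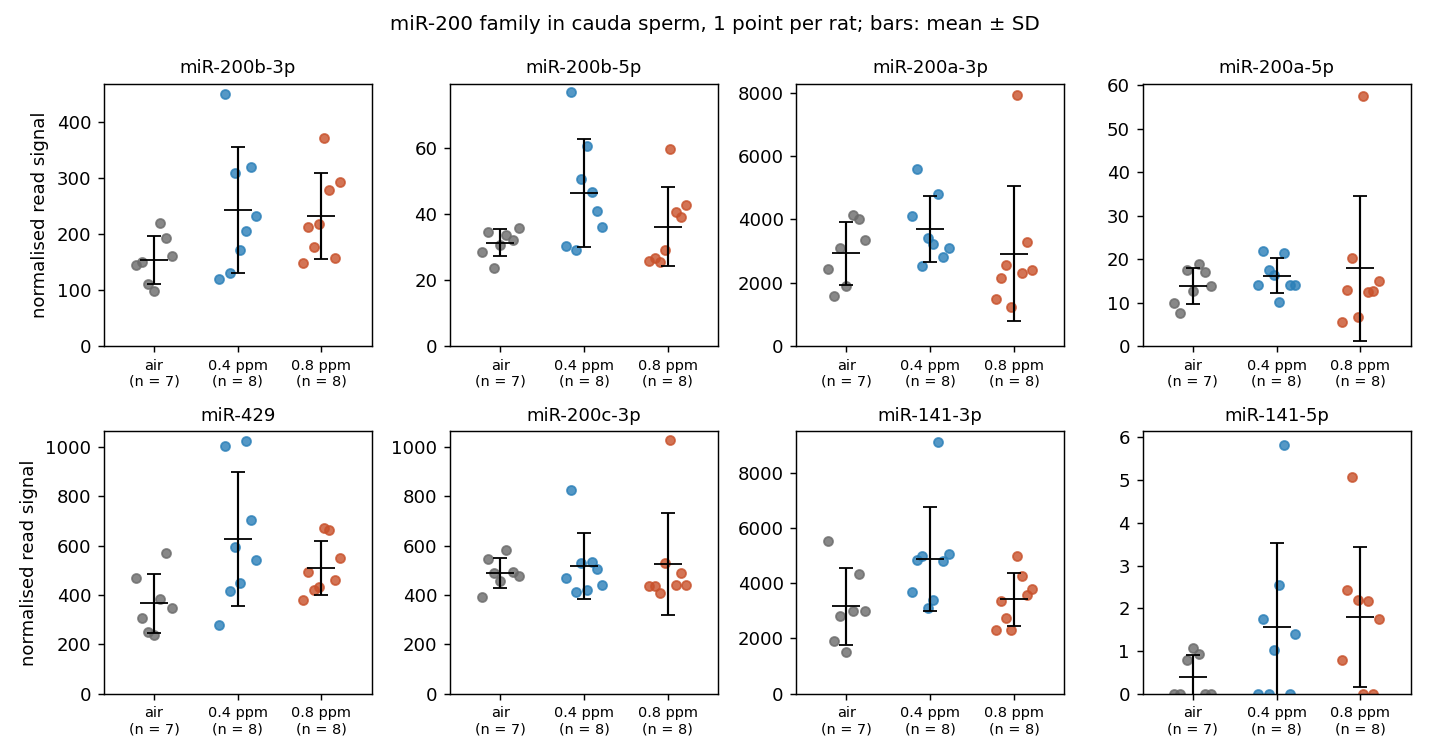
Normalised read signal (y axis, linear from 0) of each family member in each rat, by group (x axis: air, 0.4 ppm and 0.8 ppm ozone); points are libraries, the black bar is the mean and the whiskers the SD. The 0.4 ppm points of miR-141-3p all lie above the air median of 2984, while the groups of miR-200c-3p overlap apart from single libraries at 824 and 1028.

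Across the whole table, no miRNA passed at 0.05 in any of the 3 contrasts (limma, Benjamini-Hochberg over 407 miRNAs), and neither did edgeR or DESeq2 on the recovered reads call any. Without adjustment, limma gave 22 miRNAs (5.41%) at 0.4 ppm against air, 9 (2.21%) at 0.8 ppm against air and 15 (3.69%) at 0.8 against 0.4 ppm; edgeR gave 26, 15 and 18 and DESeq2 31, 18 and 25. Of the family, 0 of 8 passed over all miRNAs, against 0% of the table. At an unadjusted p under 0.05, 4 of 8 members were higher at 0.4 ppm than in air, where 2.7% of all miRNAs were: miR-429, miR-141-3p, miR-200b-3p and miR-200b-5p. In the 0.8 ppm group 2 of 8 were higher than in air, miR-200b-3p and miR-429, where 1.72% of all were. At 0.8 against 0.4 ppm 1 of 8 was lower, miR-141-3p, where 0.983% of all were.

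By sign, 8 of 8 members had positive fold changes at 0.4 ppm against air, where 48.2% of all miRNAs did, with a median of 0.53 against −0.02 over all. At 0.8 ppm against air 7 of 8 were positive, where 51.1% of all were, with a median of 0.17 against 0.01. At 0.8 against 0.4 ppm 2 of 8 were positive, where 53.1% of all were, with a median of −0.19 against 0.02. The members varied together over rats and the ozone comparisons share the air rats, so these counts are a description. Without the 3 high libraries, 7 of 8, 5 of 8 and 3 of 8 were positive in these contrasts, with medians of 0.31, 0.07 and −0.16. The log2 fold changes of miR-141-3p, miR-429, miR-200b-3p and miR-200b-5p at 0.4 ppm against air were then 0.49, 0.44, 0.41 and 0.35, and their limma unadjusted p-values were 0.0516, 0.0625, 0.116 and 0.124. In the 0.8 ppm group against air, miR-429 and miR-200b-3p had 0.45 and 0.47 (limma unadjusted p = 0.0519 and 0.0679). miR-141-3p at 0.8 against 0.4 ppm then had −0.40 (limma unadjusted p = 0.112). An unadjusted p under 0.05 was then reached by miR-200a-3p at 0.8 against 0.4 ppm, with −0.59 (limma unadjusted p = 0.0192, adjusted p = 0.508), and by miR-141-5p at 0.8 ppm against air, with 1.02 (limma unadjusted p = 0.0126, adjusted p = 0.929), on the few reads given above. The other fold changes against air without the 3 high libraries were 0.095 for miR-141-3p and 0.043 for miR-200b-5p at 0.8 ppm. At 0.4 ppm they were 0.082 for miR-200a-5p and 0.28 for miR-141-5p. With miRNA reads as a covariate and all libraries kept, 6, 7 and 4 of 8 were positive.

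**Figure D2:**
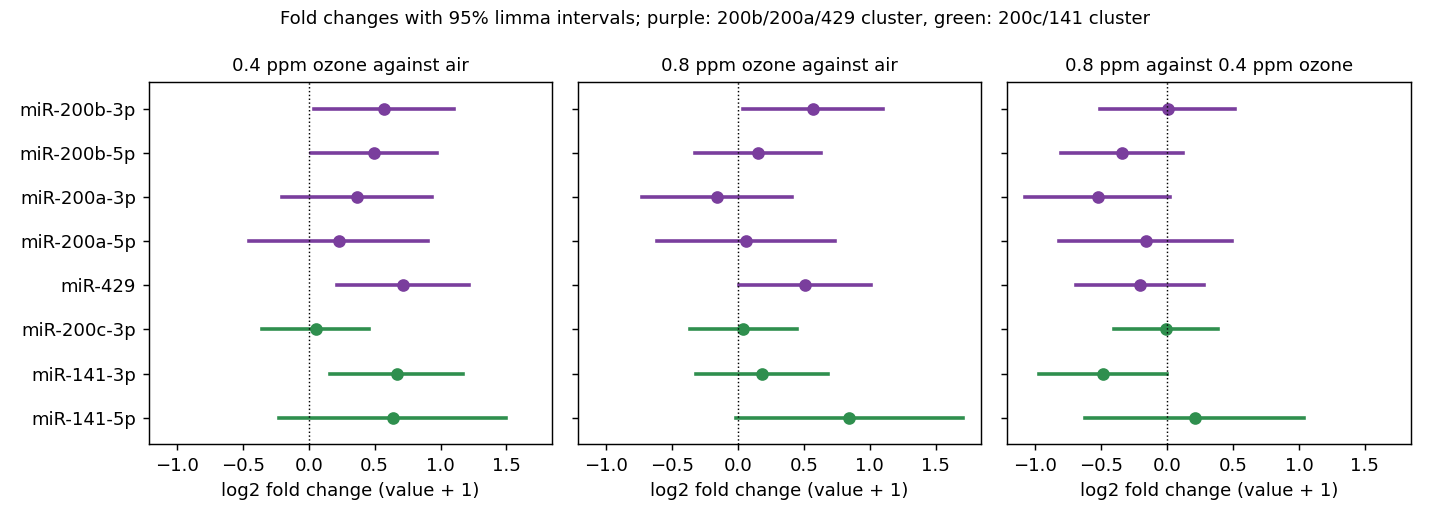
log2 fold change on the value + 1 scale (x axis) of each member (y axis) in 3 contrasts, with 95% limma intervals; purple marks the miR-200b/miR-200a/miR-429 cluster and green the miR-200c/miR-141 cluster. Intervals of miR-200b-3p and miR-429 lie above 0 in both ozone groups against air, those of miR-141-3p and miR-200b-5p at 0.4 ppm, and none of the 8 members passed after adjustment.

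Neither cluster stood apart from the other by more than the spread between rats. The chromosome 5 cluster summed to 3499 ± 1104 in air, 4630 ± 1332 at 0.4 ppm and 3714 ± 2278 at 0.8 ppm (SD; 7, 8 and 8 rats). The chromosome 4 cluster summed to 3651 ± 1354, 5390 ± 1903 and 3941 ± 1091 in the same groups. The chromosome 5 cluster thus held 49.3% ± 7.56 of the family in air, 46.6% ± 7.55 at 0.4 ppm and 46.4% ± 6.63 at 0.8 ppm (SD). The log2 ratio of the chromosome 5 sum to the chromosome 4 sum was −0.04 ± 0.45 in air, −0.20 ± 0.44 at 0.4 ppm and −0.21 ± 0.39 at 0.8 ppm (SD). The differences of −0.16 for 0.4 ppm against air, −0.16 for 0.8 ppm against air and −0.01 for 0.8 against 0.4 ppm were smaller than the pooled SD of 0.43 between rats. Without the 3 high libraries they were −0.17, −0.28 and −0.11. The sums are mostly miR-200a-3p and miR-141-3p. With every member weighted alike, as the mean of its log2 values, the differences were 0.02, −0.13 and −0.15, so the sign at 0.4 ppm against air turned, and with quantile normalization they were −0.28, −0.21 and 0.06, so that of 0.8 against 0.4 ppm turned. As a score over the members the ratio was not tested. Within each cluster the members were unequal. At 0.4 ppm against air miR-141-3p had a log2 fold change of 0.67 and its neighbour miR-200c-3p 0.05, while miR-429, miR-200b-3p and miR-200a-3p had 0.72, 0.57 and 0.37.

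**Figure D3:**
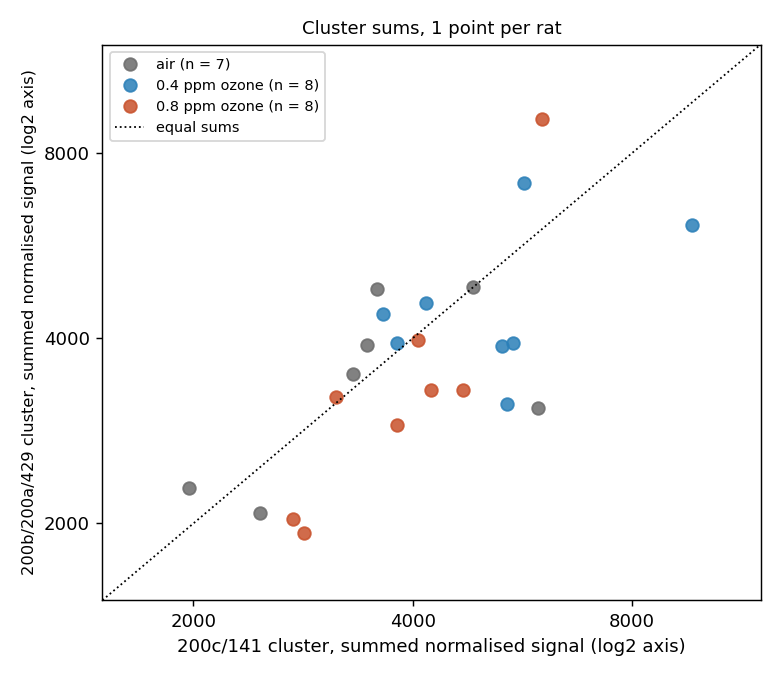
Summed signal of the miR-200b/miR-200a/miR-429 cluster (y axis) against that of the miR-200c/miR-141 cluster (x axis), both on log2 axes, 1 point per rat, with a dotted line of equal sums. Points of all 3 groups lie on both sides of the line, and the highest values, 9096 for the first cluster and 9653 for the second, belong to different ozone libraries.

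The family summed to 7150 ± 2109 units in air, 10019 ± 2806 at 0.4 ppm and 7655 ± 3279 at 0.8 ppm (SD; 7, 8 and 8 rats). On this scale 2 of 8 libraries at 0.4 ppm and 1 of 8 at 0.8 ppm were above the highest air library at 9676, and these were the 3 high libraries. Without them the sums were 8595 ± 654 at 0.4 ppm (SD, n = 6) and 6589 ± 1391 at 0.8 ppm (SD, n = 7). As a share of all miRNA signal, the family held 1.14% ± 0.325 of the miRNA signal in air, 1.78% ± 0.716 at 0.4 ppm and 1.28% ± 0.719 at 0.8 ppm (SD; 7, 8 and 8 rats). By share, more libraries at 0.4 ppm stood out than by sum: 6 of 8 were above the highest air library at 1.45%, and at 0.8 ppm 1 of 8 was. Without the 3 high libraries the shares were 1.43% ± 0.238 at 0.4 ppm (SD, n = 6) and 1.04% ± 0.269 at 0.8 ppm (SD, n = 7). At 0.4 ppm the germ cell miRNAs, given above, had values of the opposite sign: their share was 35.6% against 42.6% in air. Of their 6 members 0 had positive fold changes at 0.4 ppm against air, where 48.2% of all miRNAs did, and the median was −0.39. The part of the germ cell difference in the family's share was not tested.

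Proportions within the family were also compared, as a description. miR-200a-3p exceeded miR-200b-3p 19.3 ± 5.28 times in air, 17.7 ± 8.40 times at 0.4 ppm and 12.4 ± 5.98 times at 0.8 ppm (SD), and 5 of 8 libraries at 0.8 ppm were below the lowest air library. miR-200a-3p exceeded miR-429 8.32 ± 2.78 times in air, 6.72 ± 3.39 times at 0.4 ppm and 5.50 ± 2.90 times at 0.8 ppm (SD), again with 5 of 8 libraries at 0.8 ppm below the lowest air library. miR-141-3p exceeded miR-200c-3p 6.70 ± 3.75 times in air, 9.70 ± 3.75 times at 0.4 ppm and 6.80 ± 1.88 times at 0.8 ppm (SD). These ratios are scores over members, and no test was made of them. For both miR-200a-3p ratios the 5 low libraries at 0.8 ppm were replicates 1, 2, 4, 6 and 8, with 628270 to 1245602 miRNA reads. Replicates 3, 5 and 7 of that group had 645310, 213839 and 486748 miRNA reads. With log2 miRNA reads, miR-200a-3p had r = −0.694, miR-200b-3p −0.064 and miR-429 −0.220. The part of library depth in these ratios was not tested.

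Among the 3 hairpins with both arms in the table, the 5p arm was a sizeable share of the signal for miR-200b. Of the signal of miR-200b, the 5p arm was 17.5% ± 3.43 in air, 17.1% ± 4.73 at 0.4 ppm and 13.7% ± 2.79 at 0.8 ppm (SD). At 0.8 ppm 5 of 8 libraries were below the lowest air library, and at 0.4 ppm 1 of 8 was, at 11.3%. These shares rest on few reads of miR-200b-5p, 25 to 75 in a 0.8 ppm library. With log2 miRNA reads miR-200b-5p had r = −0.483, which did not pass, and miR-200b-3p −0.064. The part of depth in this share was not tested. Of miR-200a it was 0.483% ± 0.096 in air, 0.449% ± 0.115 at 0.4 ppm and 0.567% ± 0.147 at 0.8 ppm (SD). Of miR-141 it was under 0.2% in every library. miR-200a-5p and miR-200b-5p, which share the seed printed above, thus had read signal in very different proportion to that of their 3p arms. How much of each arm is made was not measured.

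The members differed in how far rats of one group spread. The residual SD of log2 signal about the group means was 0.333 for miR-200c-3p, lower than for all but 13.5% of 230 miRNAs with a median of at least 10, and 0.396 for miR-200b-5p. It was 0.489 for miR-429, 0.512 for miR-141-3p and 0.528 for miR-200b-3p, near the median of 0.517 over those 230, and 0.608 and 0.657 for miR-200a-3p and miR-200a-5p. miR-141-3p thus spread more than miR-200c-3p, its neighbour in the same cluster.

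Over the 23 libraries all 21 pairs of the 7 members with a median of at least 10 had positive correlations of log2 signal, and 13 passed a permutation test at 0.05 after Benjamini-Hochberg adjustment over the pairs. Of 11 pairs within a cluster 6 passed, with a median r of 0.454, and of 10 pairs between clusters 7 passed, with a median r of 0.596. By Spearman's rho the order of these counts was the other way: 8 pairs passed in all, 5 of 11 within a cluster and 3 of 10 between clusters. With quantile normalization Pearson's r passed for 4 of 11 and 2 of 10, so no difference between the kinds of pair is drawn. Leaving out libraries picked for high members narrows the range of signal, so weaker correlations without the 3 high libraries follow in part from that choice. Most of the calls made over 23 libraries were then lost. Over the other 20 libraries 18 pairs were positive, the median r was 0.203 and 3 pairs passed by r, 4 by rho. Those that passed by r were the arms of miR-200a (r = 0.741), miR-200b-3p with miR-429 (r = 0.869) and miR-141-3p with miR-429 (r = 0.650; permutation adjusted p = 0.00210, 0.000210 and 0.0133). The closest pairs were the arms of miR-200a (r = 0.849, Spearman rho = 0.726, permutation adjusted p = 0.000105) and miR-200b-3p with miR-429, which are of 1 cluster and 1 seed class (r = 0.826, rho = 0.812, permutation adjusted p = 0.000105). Across clusters and seeds, miR-141-3p followed miR-429 (r = 0.755, rho = 0.712, permutation adjusted p = 0.000420). miR-141-3p and miR-200c-3p, neighbours on chromosome 4, did not pass (r = 0.167, rho = 0.004, permutation adjusted p = 0.432). Without the 2 libraries farthest from the median of the first member of each pair, these r values were 0.745, 0.742, 0.605 and 0.132 in that order, and that of miR-200a-5p with miR-200c-3p fell to 0.249, against 0.623 over all, so it rests on those libraries. With the group means removed 14 pairs passed. All libraries share the median-ratio scaling; 21 pairs passed with values scaled to the total miRNA signal of a library, and 6 with quantile normalization.

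**Figure D4:**
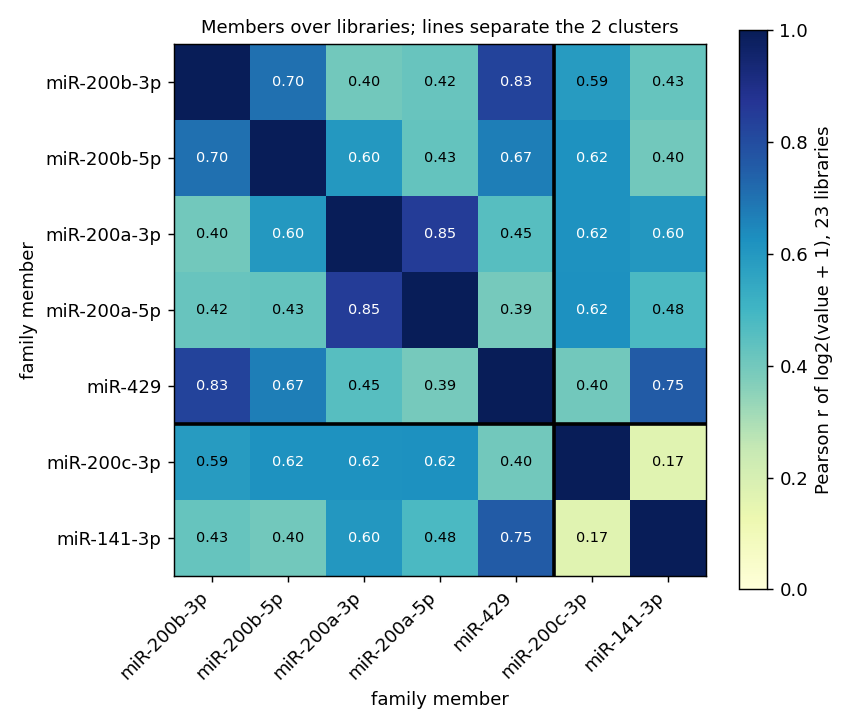
Pearson r of log2(value + 1) over 23 libraries for each pair of the 7 members with a median of at least 10; both axes list members by cluster, black lines part the clusters and the colour scale runs from 0 to 1. The cell of miR-200c-3p with miR-141-3p, at 0.17, is the palest, and those of miR-200a-3p with miR-200a-5p and of miR-200b-3p with miR-429 are the darkest.

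The 2 arms of miR-200a were lower in deeper libraries. Across 23 libraries miR-200a-3p had r = −0.694 and rho = −0.658 with log2 miRNA reads (permutation adjusted p = 0.00266 and 0.0122 over 14 relations; r = −0.539 without the 2 libraries farthest from the median depth, r = −0.672 with the group means removed). miR-200a-5p had r = −0.610 and rho = −0.476 (permutation adjusted p = 0.0116 and 0.157), with r = −0.376 without those 2 libraries. Without the 3 high libraries the r values were −0.569 for miR-200a-3p and −0.375 for miR-200a-5p, over 20 libraries. The other 5 members had r from −0.483 to −0.064 and did not pass. With Lcn5, none of the 7 members passed; miR-200a-3p had the highest r, 0.420 (rho = 0.383; permutation adjusted p = 0.157 and 0.247).

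**Figure D5:**
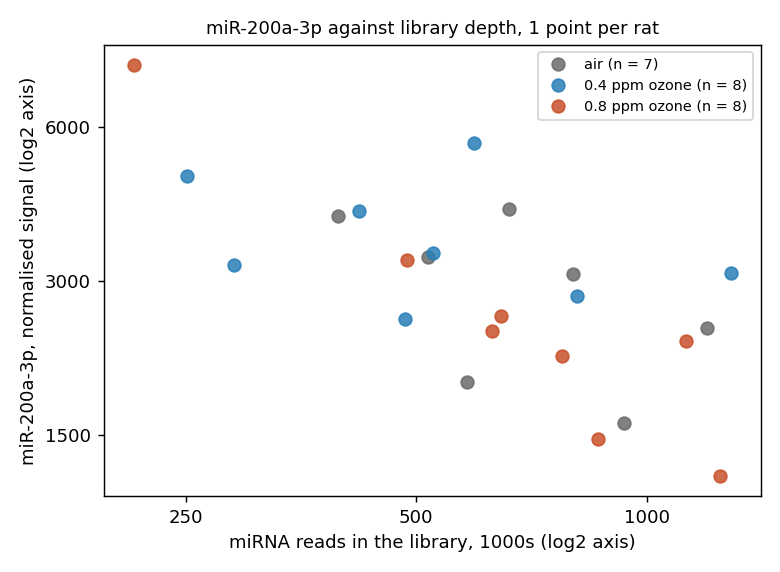
Normalised signal of miR-200a-3p (y axis) against miRNA reads in the library in units of 1000 (x axis), both on log2 axes, 1 point per rat coloured by group. The shallowest library, with 213839 reads, has the highest signal, 7934, and the lowest signal, 1247, is in a library of the same group.

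The miRNAs whose signal was most like the summed family over the 23 libraries, among 223 others with a median of at least 10, were miR-148a-3p (r = 0.851), miR-201-5p (r = 0.783), miR-3553 (r = 0.677), miR-146a-5p (r = 0.646) and miR-3068-5p (r = 0.642), where the median r was −0.06. At the other end stood miR-30e-3p (r = −0.793), miR-106b-3p (r = −0.790) and miR-449a-5p (r = −0.769), the last a miRNA of the miR-34 family abundant in male germ cells. With values scaled to the total miRNA signal of a library, the first 5 had r of 0.902, 0.851, 0.742, 0.777 and 0.701, and the last 3 had −0.437, −0.738 and −0.640. These points share library depth and scaling. Mean signal in air, 0.4 ppm and 0.8 ppm was 45.5 ± 15.6, 61.6 ± 21.9 and 47.7 ± 29.0 for miR-148a-3p (SD). For miR-201-5p it was 1451 ± 592, 1844 ± 582 and 1526 ± 1164. For miR-3553 it was 175 ± 76.2, 279 ± 111 and 200 ± 102, and for miR-146a-5p 722 ± 135, 963 ± 243 and 745 ± 190. These means were highest at 0.4 ppm, as was the family sum. That of miR-3068-5p was highest at 0.8 ppm. All were picked for likeness to the family, so a like order follows in part.

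Markers of other cells had fold changes of mixed direction. The 9 other epithelial miRNAs, led by miR-375-3p and miR-182, held 3.17% ± 0.741, 3.43% ± 0.988 and 3.18% ± 0.564 of the signal in air, 0.4 ppm and 0.8 ppm (SD). Without 0.4 ppm replicate 5, at 5.53%, the 0.4 ppm mean was 3.13% ± 0.545 (SD, n = 7), below that in air. Against air 4 of 9 were positive at 0.4 ppm and 6 of 9 at 0.8 ppm, where 48.2% and 51.1% of all miRNAs were. The median log2 fold change at 0.4 ppm against air was −0.13. The 13 miRNAs of mesenchymal cells and of the loss of epithelial character, led by miR-21-5p and miR-199a-3p, held 1.31% ± 0.199, 1.44% ± 0.440 and 1.43% ± 0.476 (SD). Without 0.8 ppm replicate 5, at 2.56%, the 0.8 ppm mean was 1.26% ± 0.138 (SD, n = 7), below that in air. Against air 7 of 13 were positive at 0.4 ppm, with a median of 0.07, and 10 of 13 at 0.8 ppm. The 5 muscle and stroma miRNAs, led by miR-143-3p and miR-145-5p, held 1.95% ± 0.523, 2.85% ± 0.704 and 3.24% ± 3.29 (SD), where 0.8 ppm replicate 7 alone was at 11.3%; their medians were 1.72%, 2.87% and 1.99%. Without that library, left out after its value was seen, the 0.8 ppm mean was 2.09% ± 0.480 (SD, n = 7), so the order of the ozone groups turned. All 4 tested were positive in both ozone groups against air, where 48.2% of all miRNAs were at 0.4 ppm and 51.1% at 0.8 ppm. Their median log2 fold changes were 0.40 at 0.4 ppm and 0.39 at 0.8 ppm. The 6 leukocyte miRNAs, led by miR-142-5p and miR-150-5p, held 0.070% ± 0.013, 0.084% ± 0.033 and 0.067% ± 0.015 (SD). The 4 erythroid miRNAs, led by miR-451-5p and miR-144-5p, held 0.053% ± 0.021, 0.084% ± 0.069 and 0.056% ± 0.026 (SD). Without 0.4 ppm replicate 2, the highest for both lists, the 0.4 ppm means were 0.079% and 0.067% (n = 7). At 0.4 and 0.8 ppm against air, 2 and 4 of the 6 leukocyte miRNAs and 3 and 3 of the 4 erythroid miRNAs were positive. Each library left out here was chosen after its value was seen. At a limma unadjusted p under 0.05, 1 of the 9 other epithelial miRNAs was higher at 0.4 ppm than in air, miR-182 (log2 fold change 0.63). Of the 13 mesenchymal miRNAs 1 was higher, miR-21-3p (1.11). Of the 6 germ cell miRNAs 1 was lower, and the other marker lists had none. At 0.8 ppm against air 1 of the 4 muscle and stroma miRNAs tested was higher. No marker miRNA passed over all miRNAs in any contrast, against 0% of the table, and the part of the markers in the family's values was not tested.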

How the data were processed

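Per the labels' protocols, RNA of cauda sperm was isolated by the mirVana method, made into libraries by the CleanTag kit and sequenced single-end over 75 cycles, with RNA integrity numbers of 2 to 4. Partek, Bowtie 1.0.0 and the build rn6 come from the submitters' processing notes. The deposited miRNA and Ensembl tables hold a scaled read signal; the miRNA signal had an equal median ratio to the geometric mean in all libraries. Of the low miRNA values checked, 100% were whole multiples of 1 read within 0.1 read (292 to 355 values per library), which recovered whole read counts. The Ensembl signal is fractional and its depth unknown. The deposited piRNA and tRNA tables were not used here.

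Using limma 3.58.1 in R 4.3.3, log2(value + 1) was modelled with trend and robust moderation over 3 groups in 1 model, for 407 miRNAs above 0 in at least 8 libraries; fold changes on this scale understate low miRNAs. Adjusted p is Benjamini-Hochberg within a contrast, two-sided, at 0.05. Intervals are 95%. edgeR 4.0.16 (quasi-likelihood, TMM) and DESeq2 1.42.0 were run on the recovered reads as alternatives, beside other pseudocounts, filters, scalings, library weights, groups alone, reads as covariate and each rat left out. The limma step was tested on simulated data. Correlation p-values are from 100000 permutations, two-sided. Wilson intervals cover counting error only, since reads are not independent molecules.

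Each row of the family was named, with the 5 miRNAs most like its sum and the 2 most abundant of each marker list; the 3 least like it were added after their values were seen. Members and lists were chosen with earlier results of these data known. The labels name no sequencing run or date. The library names carry numbers from 1 to 12, 11 of them on 2 libraries each and 1 on a single library, so the libraries may come from more than 1 run; which library was in which is not given, and its part was not tested. Rats are separate animals, numbered in accession order.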

Additional observations from a re-analysis of the deposited data

Results flagged for a closer look

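Single libraries stood apart from the other 7 of their ozone group in 7 of the 30 groups of values examined (24 of members, 6 of family measures). The measure was the gap to the nearest library over the group's range, on values without a logarithm. Its cutoff, 0.526 for 8 libraries, is passed by about 1 in 20 independent groups if values are normally distributed, which was not tested. High values weigh more on this scale than after a logarithm, so no excess over chance is drawn from the 7 groups. The 7 come from 3 libraries, and the members vary together and make up the family measures, so these groups are not independent. At 0.4 ppm, replicate 6 had 9112 units of miR-141-3p, where the next library had 5039, and 5.83 units of miR-141-5p, which were 3 reads. Replicate 2 of that group had 824 units of miR-200c-3p, where the next had 535. At 0.8 ppm, replicate 5 had 7934 units of miR-200a-3p (next 3299), 57.5 units of miR-200a-5p (next 20.3) and 1028 units of miR-200c-3p (next 531), and the family held 2.95% of its miRNA signal.

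Counted as reads, the family was 2.95% of 213839 reads in 0.8 ppm replicate 5 (Wilson 95% interval 2.88 to 3.02), 3.23% of 251123 in 0.4 ppm replicate 6 (3.16 to 3.30) and 2.46% of 595030 in 0.4 ppm replicate 2 (2.43 to 2.50). Shares of some other markers also ranked high among the 23 libraries, counted from the highest. In 0.8 ppm replicate 5 the mesenchymal share of 2.56% ranked 1, the erythroid share of 0.0945% ranked 4 and the leukocyte share of 0.0884% ranked 6. In 0.4 ppm replicate 6 the leukocyte share of 0.112% and the erythroid share of 0.138% ranked 2, and the mesenchymal share of 1.79% and the muscle and stroma share of 3.23% ranked 3. In 0.4 ppm replicate 2 the leukocyte and erythroid shares of 0.123% and 0.206% ranked 1, and the mesenchymal share of 1.42% ranked 9. Other shares did not rank high. That of the other epithelial miRNAs ranked 15 in 0.8 ppm replicate 5, 13 in 0.4 ppm replicate 6 and 10 in 0.4 ppm replicate 2. The muscle and stroma share ranked 14 in 0.8 ppm replicate 5 and 17 in 0.4 ppm replicate 2. The germ cell share was 33.2%, 29.7% and 36.2% in 0.8 ppm replicate 5, 0.4 ppm replicate 6 and 0.4 ppm replicate 2, which ranked 19, 21 and 16 from the highest. The part of these in the family's values was not tested.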

How the results depend on the processing

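No paired analysis was possible because the rats are separate animals and their numbers follow accession order. No miRNA was called under any alternative, nor in any of the 23 fits without 1 rat (0 to 0), except with library weights: 2 at 0.4 ppm against air (miR-3590-5p and miR-429) and 3 at 0.8 ppm against air (miR-17-2-3p, miR-471-5p and miR-741-3p). The number of member pairs whose correlation passed was 21 with values scaled to total miRNA signal, 6 with quantile normalization and 3 without the 3 high libraries, against 13. The cluster log2 ratio kept its sign against air without any 1 rat, from −0.31 to −0.075 at 0.4 ppm and −0.32 to −0.087 at 0.8 ppm, and ran from −0.12 to 0.070 at 0.8 against 0.4 ppm. It was 0.023 at 0.4 ppm against air by the mean of log2 values and 0.061 at 0.8 against 0.4 ppm with quantile normalization. For the fold changes whose sign turned, the cause was not tested. At 0.4 ppm against air, miR-200a-5p was −0.00097 and miR-200c-3p −0.025 with miRNA reads as covariate; miR-200c-3p was −0.078 without the 3 high libraries and −0.048 to 0.095 without 1 rat. At 0.8 ppm against air, miR-200a-5p was −0.0691 with quantile normalization, −0.20 with library weights, −0.22 without the 3 high libraries and −0.22 to 0.24 without 1 rat; miR-200c-3p was −0.12 with library weights, −0.11 without the 3 high libraries and −0.11 to 0.084 without 1 rat. At 0.8 against 0.4 ppm, miR-200b-3p was −0.0941 with values scaled to total miRNA signal, −0.0707 with quantile normalization, −0.20 with library weights, −0.0828 with edgeR, −0.0734 with DESeq2 and −0.12 to 0.15 without 1 rat; miR-200c-3p was 0.048 with quantile normalization, 0.059 with reads as covariate, 0.014 with DESeq2 and −0.16 to 0.0895 without 1 rat; miR-200a-5p was 0.044 with reads as covariate and −0.45 to 0.0085 without 1 rat; miR-429 was 0.0025 without the 3 high libraries. The correlation of miR-141-3p with miR-200c-3p was −0.055 with quantile normalization; without the 3 high libraries it was −0.36, and those of miR-200c-3p with miR-200a-5p and miR-429 were −0.00070 and −0.099. Depth limits miR-141-5p, with at most 5 reads in a library.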
